A study of Mus musculus with 19 samples.

Results

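The genes described here encode collagens and a small set of other proteins of the extracellular matrix, measured in isolated mouse hearts after ischemia and reperfusion. They were all genes whose platform symbol has the form of a collagen chain, such as Col1a1, together with Eln, Lox, Fn1, Fbn1, Postn and Spon2. Of the 50 genes this rule lists, 49 were measured, 44 of them collagens, among the 22180 genes tested. Fbn1 was not analysed here. The rule goes by symbol alone. A total of 30 members passed a filter on dim probe sets, a log2 value of at least 4 on at least 5 arrays, and the other 19 lay nearer the array background.

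Collagens are secreted proteins built from chains wound into a triple helix. Fibrillar types I, III and V form the load-bearing fibres of the heart, type IV forms the sheet of basement membrane around muscle cells and capillaries, and type VI forms beaded filaments that join the cell surface to the fibres. Elastin, encoded by Eln, gives arteries and valves their recoil once lysyl oxidase, encoded by Lox, has cross-linked it, and the same enzyme cross-links collagen. Fibroblasts make most fibrillar collagen in the heart, while endothelial cells, smooth muscle cells and pericytes make much of the type IV collagen and elastin.

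The study measured transcripts in 19 hearts on Affymetrix arrays, 1 array per heart. Wild-type C57Bl6J mice gave 7 hearts at zeitgeber time 0 (ZT0, lights on) and 7 at ZT12 (lights off), and mice labelled Reverb alpha KO gave 5 hearts at ZT12. Each one was kept on a Langendorff perfusion, which feeds buffer into the aorta against the normal direction, for 20 min to stabilise, then had its flow stopped for 20 min and restored for 20 min, and 300 ng of its RNA was labelled. Reverb alpha, encoded by Nr1d1, is a repressor in the circadian clock.

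The labels name no strain or design of the deletion for the knockout mice, and no age or sex for any group. No group was a heart without ischemia, and no knockout heart was taken at ZT0, so genotype and time of day cannot be told apart in the comparison of knockout hearts at ZT12 with wild-type hearts at ZT0. All values below are log2 values made by robust multi-array averaging (RMA), in which background is corrected, arrays are brought to a common distribution and probes are summarised. A value belongs to 1 probe set, so levels were compared between hearts and never between genes.

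Array medians lay between 3.25 and 3.32, and correlations between arrays between 0.972 and 0.985. Nr1d1 did not separate the genotypes: its values were 6.46 to 7.28 at ZT12 in wild-type hearts and 6.30 to 6.51 in the hearts labelled knockout (adjusted p = 0.374). Where its probes lie relative to the deletion is not given in the sources used here, so this signal checks no label, and the group is called "hearts labelled knockout" below. Arntl, a clock gene that Reverb alpha represses, read 3.72 to 4.31 in wild-type hearts at ZT12, 6.28 to 6.77 in the hearts labelled knockout and 7.18 to 7.36 in wild-type hearts at ZT0. The cardiomyocyte genes Myh6, Tnnt2 and Actc1 were at 11.84 or above on every array, and the mean over 10 cardiomyocyte markers ran only from 11.15 to 11.36.

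The promoter windows of Col4a1, Col4a2 and Col5a3 are shown. Col4a1 and Col5a3 are among the members that differ below, and Col4a2 starts beside Col4a1. Each window is 300 bases, from 250 before to 50 after the annotated start site, from RefSeq on GRCm38.p6, written 5′ to 3′ on the gene's own strand. Capitals mark CCAAT boxes (CCAAT) and GC boxes (GGGCGG), found on either strand. The Col4a1 window is chr8:11312777-11313076 on the minus strand, the Col4a2 window chr8:11312555-11312854 on the plus strand, and the Col5a3 window chr9:20815018-20815317 on the minus strand.
Col4a1: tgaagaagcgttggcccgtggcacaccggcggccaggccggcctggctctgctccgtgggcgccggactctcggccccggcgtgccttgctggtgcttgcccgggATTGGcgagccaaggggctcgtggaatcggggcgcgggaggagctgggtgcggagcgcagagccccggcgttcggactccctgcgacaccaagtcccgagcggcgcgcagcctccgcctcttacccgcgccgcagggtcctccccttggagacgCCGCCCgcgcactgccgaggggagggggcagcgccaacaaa
Col4a2: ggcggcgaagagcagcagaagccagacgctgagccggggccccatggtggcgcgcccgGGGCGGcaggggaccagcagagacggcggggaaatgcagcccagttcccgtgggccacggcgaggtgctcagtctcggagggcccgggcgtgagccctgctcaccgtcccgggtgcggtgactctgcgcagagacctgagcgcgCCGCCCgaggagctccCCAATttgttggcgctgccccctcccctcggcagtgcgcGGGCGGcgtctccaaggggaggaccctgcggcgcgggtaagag
Col5a3: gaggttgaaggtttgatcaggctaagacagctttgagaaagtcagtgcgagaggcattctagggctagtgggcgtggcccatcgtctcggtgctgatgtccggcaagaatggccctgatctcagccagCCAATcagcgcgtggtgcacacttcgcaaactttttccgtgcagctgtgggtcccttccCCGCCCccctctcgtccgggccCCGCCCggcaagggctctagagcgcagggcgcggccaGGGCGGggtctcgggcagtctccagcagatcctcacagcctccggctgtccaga

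The start sites of Col4a1 and Col4a2 lay 21 bases apart on opposite strands, so these windows overlap, and 1 GC box just past both start sites lies in both of them. GC content was 74.0% for Col4a1, 73.7% for Col4a2 and 63.3% for Col5a3, against a median of 52.7% over all windows. Spon2, Eln and Lox had no window and were not scanned. Of the 49 members, 36 had a window, 40 windows in all. The circadian E-box CACGTG was in 0 of these 40 windows and in 7.15% of all 32851 windows, and the D-box TTATGTAA in 0 of 40 and 0.938%. The nuclear receptor motif AGGTCA was in 9 of 40 (22.5%) against 16.3% of all windows, the CCAAT box in 14 of 40 (35.0%) against 37.4%, and the GC box in 23 of 40 (57.5%) against 35.7%. These are matches of letters on both strands and not binding sites.

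The first comparison asked how wild-type hearts at ZT12 differed from those at ZT0. Of the 49 members, 4 were lower at ZT12 and 0 were higher by limma at an adjusted p under 0.05 over all genes, and 45 did not pass. Spon2, Col5a3, Col4a1 and Eln were the 4 that fell, 8.16% of the members, where 0.482% of all genes tested were called lower and 1.13% in either direction. The members were proposed with results of these data known, so this contrast is a description and not independent support. At an unadjusted p under 0.05, 13 members were lower and 1 was higher, together 28.6% of the members against 11.5% of all genes. The median log2 difference of the members was -0.099, with 36 of 49 below 0 (73.5%), and that of all genes was -0.004, with 51.2% below 0. The 7 hearts at ZT12 lay wholly below the 7 at ZT0 for 5 members (10.2%), the 4 called genes and Lox, and this held for 0.374% of all genes. The ZT12 hearts lay wholly above for 0 members and for 0.528% of all genes.

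Spon2 encodes spondin-2, a secreted matrix protein known in mice as a ligand for integrins and for microbial surfaces. Its lowest, median and highest values were 4.46, 5.11 and 5.78 at ZT0 and 3.25, 3.74 and 4.08 at ZT12 in wild-type hearts. The hearts labelled knockout, replicates 1 to 5, read 4.24, 4.44, 4.66, 3.96 and 4.38. All ZT12 wild-type hearts were below all ZT0 hearts, and of the 5 hearts labelled knockout, 4 lay above every wild-type ZT12 heart and 4 lay below every ZT0 heart. Spon2 fell by 1.36 between ZT0 and ZT12 (SE 0.17; adjusted p = 5.80e-05), which is 2.56-fold lower. Its median in wild-type ZT12 hearts lay under the dim limit of 4, which Spon2 reached on only 12 of 19 arrays. The size of the fall is therefore limited by signal near the array background. The knockout hearts differed from wild-type hearts at ZT12 by 0.64 (SE 0.18; adjusted p = 0.127) and from those at ZT0 by -0.71 (SE 0.18; adjusted p = 0.0568), and neither passed the test.

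Eln read 4.80, 4.94 and 5.31 (lowest, median, highest) at ZT0 and 4.06, 4.35 and 4.63 at ZT12 in wild-type hearts. The hearts labelled knockout read 5.23, 4.98, 5.90, 4.36 and 4.65 for replicates 1 to 5. The wild-type groups did not overlap, whereas the knockout values ran from the middle of the ZT12 range to above every ZT0 heart. Eln fell 1.59-fold between the wild-type groups (log2 difference -0.66, SE 0.16; adjusted p = 0.0481). That call was lost in 15 of 19 fits that each left out 1 array, with adjusted p between 0.0546 and 0.106, and it was kept without replicate 1 of wild-type ZT12 or without knockout replicates 3, 4 or 5. Between the genotypes at ZT12 the Eln difference was 0.69 (SE 0.18; adjusted p = 0.0811), and leaving out knockout replicate 4 gave an adjusted p of 0.0201.

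Lox read 4.26, 4.35 and 4.47 at ZT0 and 3.64, 4.03 and 4.17 at ZT12 in wild-type hearts. The hearts labelled knockout read 4.82, 4.59, 5.0, 4.13 and 3.93. The wild-type groups again did not overlap, and the knockout hearts fell on both sides of them, with replicates 1, 2 and 3 above every wild-type heart and replicates 4 and 5 within the ZT12 range. The Lox difference between the wild-type groups was -0.35 (SE 0.13; adjusted p = 0.263) and that between the genotypes at ZT12 was 0.49 (SE 0.14; adjusted p = 0.134). Without knockout replicate 5 the latter had an adjusted p of 0.0238.

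**Figure D1:**
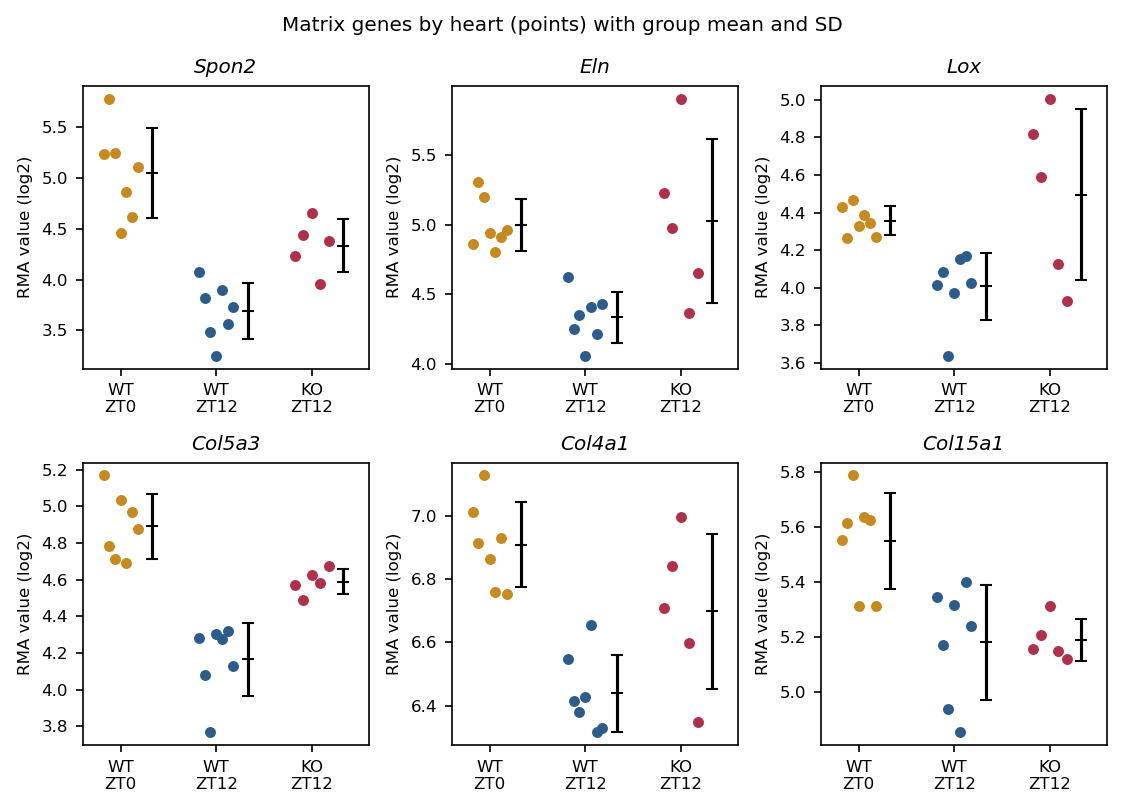
RMA values (log2, y axis) of Spon2, Eln, Lox, Col5a3, Col4a1 and Col15a1 in each heart (points), by group on the x axis, with group mean and SD (bar). The wild-type ZT12 hearts lie wholly below the ZT0 hearts in the first 5 panels, and among the knockout hearts the spread is widest for Eln and Lox.

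Col5a3 encodes the third chain of type V collagen, which sits in heterotypic fibres with types I and III. It read 4.69, 4.88 and 5.17 at ZT0 and 3.77, 4.28 and 4.32 at ZT12 in wild-type hearts. The hearts labelled knockout read 4.57, 4.49, 4.62, 4.58 and 4.67. No 2 of the 3 groups overlapped: wild-type ZT12 hearts were lowest, knockout hearts lay between, and ZT0 hearts were highest. Col5a3 fell 1.65-fold between the wild-type groups (log2 difference -0.73, SE 0.089; adjusted p = 5.61e-05). It was called in all 10 other settings tried and in all 19 fits that left out 1 array, as was Spon2.

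Of the 11 fibrillar chains, 1 fell, 0 rose and 10 did not pass the test between the wild-type groups, with 10 of 11 differences below 0 and a median of -0.113. Col1a1 read 6.31, 6.54 and 7.04 at ZT0 and 6.04, 6.18 and 6.85 at ZT12, and Col3a1, the type III chain, read 6.42, 6.77 and 7.24 and then 6.17, 6.36 and 7.04. Both pairs of groups overlapped, with differences of -0.32 (SE 0.14; adjusted p = 0.377) and -0.35 (SE 0.18; adjusted p = 0.469). Col1a2, the partner chain of Col1a1 in type I collagen, read 6.48 to 6.98 at ZT0 and 6.39 to 6.94 at ZT12 (difference -0.11).

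The 2 main chains of type V collagen did not pass the test. Col5a1 read 5.04 to 5.64 at ZT0 and 5.24 to 5.46 at ZT12 (difference -0.08, adjusted p = 0.778), and Col5a2 read 4.48 to 4.93 and 4.28 to 4.90 (difference -0.11, adjusted p = 0.737). The groups of both overlapped. Whether they differ from Col5a3 was not tested. Among the dim members, Col11a2, a chain of type XI collagen, differed by -0.25 (adjusted p = 0.344) and Col11a1 by -0.19 (adjusted p = 0.349).

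Type IV collagen of the common kind is built from Col4a1 and Col4a2. Col4a1 read 6.75, 6.92 and 7.13 at ZT0 and 6.32, 6.41 and 6.65 at ZT12 in wild-type hearts, and 6.71, 6.84, 7.0, 6.60 and 6.35 in the hearts labelled knockout. The wild-type groups did not overlap, and the knockout hearts ranged over both. Col4a1 fell 1.39-fold between the wild-type groups (log2 difference -0.47, SE 0.089; adjusted p = 0.00686) and was called in all 19 fits that left out 1 array.

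Col4a2 read 6.21, 6.57 and 6.71 at ZT0 and 6.03, 6.24 and 6.42 at ZT12, and 6.51, 6.62, 6.68, 6.41 and 6.12 in the hearts labelled knockout. Its wild-type groups overlapped, with a difference of -0.29 (SE 0.092; adjusted p = 0.164). Of the 6 type IV chains, 1 fell, 0 rose and 5 did not pass. Col4a5, a chain of the other type IV networks, read 4.98 to 5.59 at ZT0 and 4.95 to 5.39 at ZT12, and Col4a3, Col4a4 and Col4a6 were between 2.81 and 4.27 on every array.

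None of the 6 type VI chains passed the test between the wild-type groups, and 5 of 6 differences were below 0. Col6a3 read 5.0, 5.43 and 5.59 at ZT0 and 4.89, 5.10 and 5.48 at ZT12 (difference -0.26, SE 0.10; adjusted p = 0.295). Col6a1 read 6.97 to 7.26 and 6.75 to 7.05 (difference -0.19), and Col6a2 read 5.50 to 6.12 and 5.37 to 5.94 (difference -0.18). The groups of all 3 overlapped. Col6a6 read 4.61 to 5.21 across the wild-type hearts, and Col6a4 and Col6a5 were dim.

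None of the 9 fibril-associated chains, which coat the surface of collagen fibres, and none of the 4 membrane-spanning collagens passed the test in any comparison. Between the wild-type groups their median differences were -0.136 and -0.026. Col20a1 had the most negative difference among them, with 3.98 to 4.35 at ZT0 and 3.57 to 4.35 at ZT12 (difference -0.23, adjusted p = 0.404). Col14a1, which binds fibres of type I collagen, read 4.57 to 5.09 at ZT0 and 4.59 to 5.16 at ZT12, and the groups overlapped.

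Col15a1 encodes type XV collagen of the basement membrane zone around muscle and small vessels. It read 5.31, 5.62 and 5.79 at ZT0 and 4.85, 5.24 and 5.4 at ZT12 in wild-type hearts, and 5.16, 5.21, 5.31, 5.15 and 5.12 in the hearts labelled knockout. The wild-type groups overlapped slightly, and the knockout hearts sat within the ZT12 range. The difference between the wild-type groups was -0.37 (SE 0.091; adjusted p = 0.0511), that between the genotypes at ZT12 was 0.01, and that between knockout hearts and ZT0 was -0.36 (SE 0.10; adjusted p = 0.0830). None passed the test.

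3 members had the most positive differences at ZT12, and none passed. Col8a1, a short-chain collagen of vessel walls, read 5.04, 5.44 and 5.63 at ZT0 and 5.30, 5.65 and 6.26 at ZT12 (difference 0.33, SE 0.14; adjusted p = 0.358). Postn, which encodes the matricellular protein periostin, read 7.05, 7.33 and 7.52 and then 7.19, 7.48 and 7.86 (difference 0.20, adjusted p = 0.729). Col28a1 was dim, at 2.54 to 3.82 across the wild-type hearts (difference 0.19). Fn1, which encodes fibronectin, read 6.60, 6.76 and 6.95 and then 6.66, 6.88 and 7.14 (difference 0.12, adjusted p = 0.696). The groups of all 4 overlapped.

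**Figure D2:**
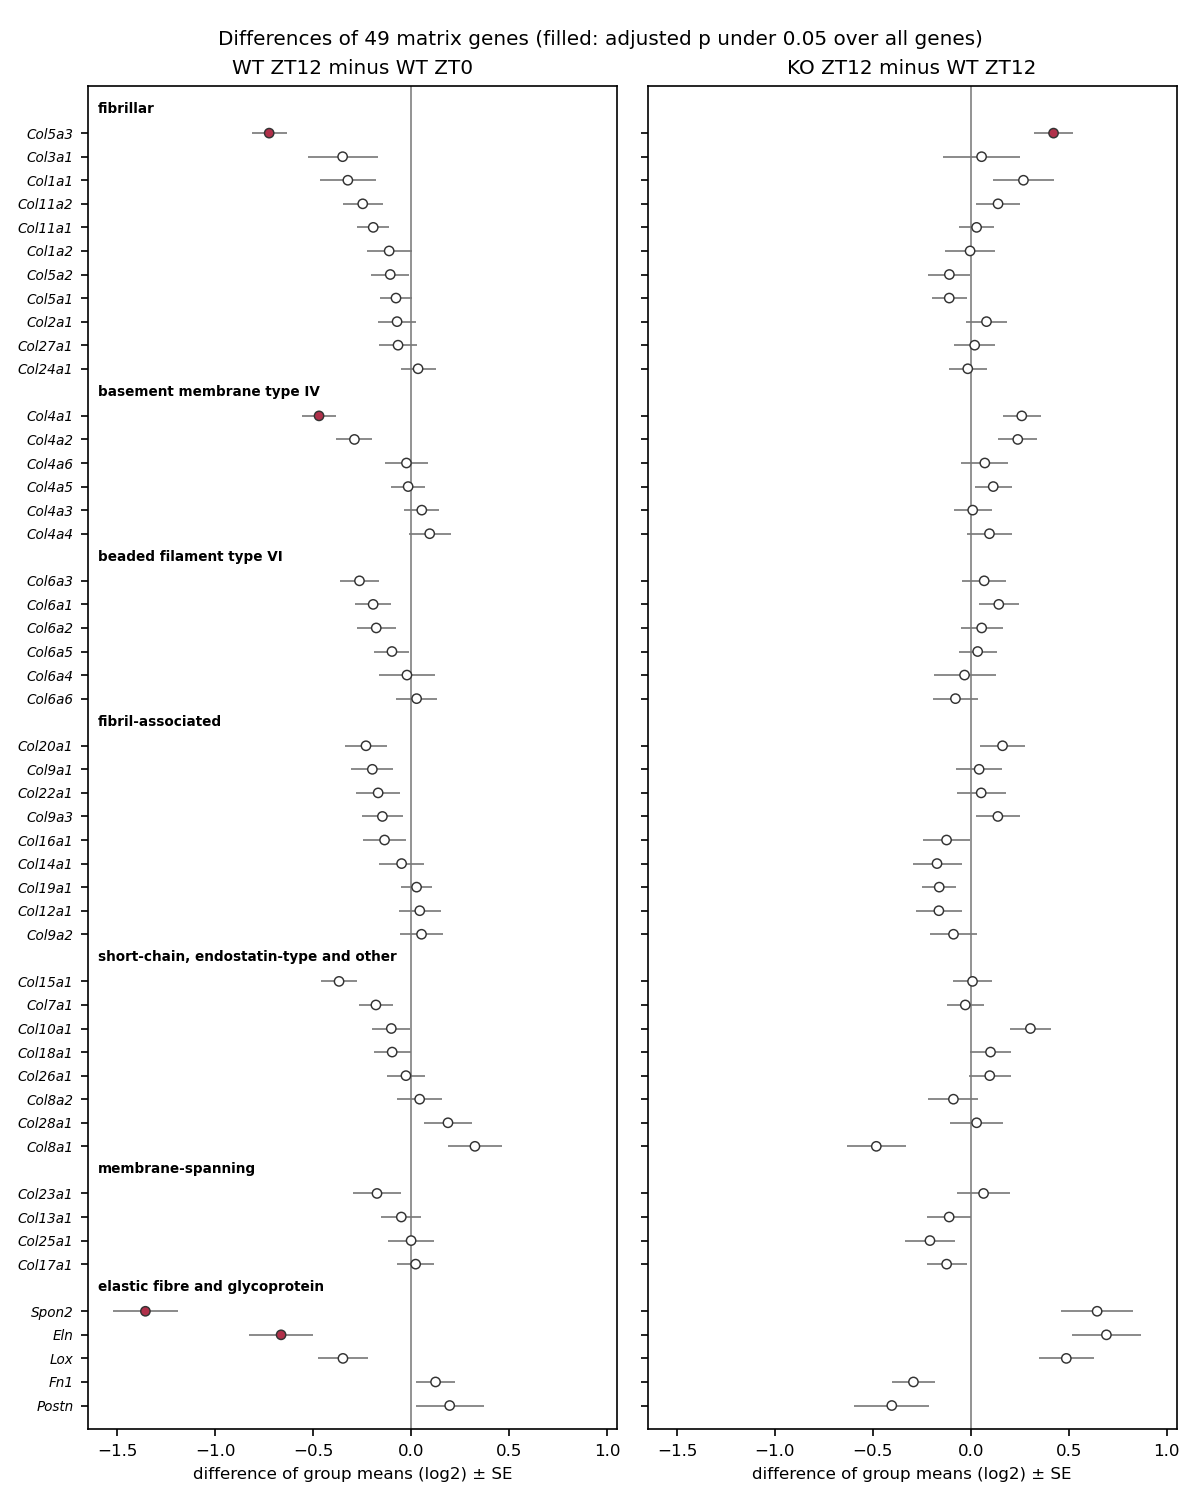
Differences of group means (log2, x axis) with SE (bars) for the 49 members, in 7 classes, for wild-type ZT12 minus ZT0 (left) and knockout minus wild type at ZT12 (right). Filled points passed the test: Spon2, Col5a3, Col4a1 and Eln on the left, all below 0, and Col5a3 on the right, above 0.

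The second comparison asked how the hearts labelled knockout differed from wild-type hearts at the same time, ZT12. Of the 49 members, 1 rose, 0 fell and 48 did not pass, so 2.04% were called higher, where 0.442% of all genes tested were, and 0.73% were called in either direction. At an unadjusted p under 0.05, 7 members were higher and 3 were lower, together 20.4% of the members against 10.6% of all genes. The median log2 difference was 0.035, with 30 of 49 above 0, against -0.003 for all genes. The groups lay apart with the knockout higher for 1 member, where 0.969% of all genes did so.

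That member was Col5a3, which rose 1.34-fold (log2 difference 0.42, SE 0.097; adjusted p = 0.0449), with all 5 hearts labelled knockout above all 7 wild-type hearts at ZT12. The call was lost in 14 of 19 fits that left out 1 array, with adjusted p between 0.0503 and 0.114. It was kept without wild-type ZT0 replicates 1, 3, 4 or 5 or wild-type ZT12 replicate 6. The same wild-type ZT12 hearts enter this comparison and the first, so the opposite signs are not independent results.

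The most negative differences between the genotypes belonged to Col8a1, Postn and Fn1, and none passed the test. Col8a1 read 5.27, 5.11, 5.60, 5.12 and 4.77 in the hearts labelled knockout, and 4 of 5 lay below every wild-type ZT12 heart (difference -0.48, SE 0.15; adjusted p = 0.185). Postn read 7.61, 7.22, 7.72, 6.74 and 6.21, with replicates 4 and 5 below every wild-type heart (difference -0.40, SE 0.19; adjusted p = 0.463). Fn1 read 6.87, 6.66, 6.85, 6.44 and 6.16 (difference -0.29, SE 0.11; adjusted p = 0.314). The groups overlapped for all 3.

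Col4a1 and Col4a2 differed by 0.26 (SE 0.097; adjusted p = 0.304) and 0.24 (SE 0.10; adjusted p = 0.387) between the genotypes, each with 3 of 5 hearts labelled knockout above every wild-type ZT12 heart. Col1a1 read 6.68, 6.70, 6.92, 6.48 and 5.94 in the hearts labelled knockout (difference 0.27, SE 0.16; adjusted p = 0.571), with 1 heart above and 1 below every wild-type ZT12 heart. Col10a1, the type X chain of growth-plate cartilage, was dim, at 2.11 to 2.95 on all arrays (difference 0.30, adjusted p = 0.25).

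The third comparison set the hearts labelled knockout at ZT12 beside wild-type hearts at ZT0 and shares arrays with both others. 0 members were called in either direction by limma, where 1.34% of all genes tested were, and 7 members, all lower in the hearts labelled knockout, had an unadjusted p under 0.05. That is 14.3% of the members against 12.6% of all genes, a share near the background. The median difference was -0.109, with 37 of 49 below 0, against -0.008 for all genes. Col5a3 lay wholly lower (difference -0.30, SE 0.097; adjusted p = 0.150), as did 0.532% of all genes, while 0 members and 1.19% of all genes lay wholly higher. Eln, at 0.03 (SE 0.18), and Lox, at 0.14, sat near 0, with 95% intervals of -0.34 to 0.40 and -0.15 to 0.43. The largest positive differences were Col28a1 at 0.22, Col10a1 at 0.20 and Col4a4 at 0.19, none called.

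Hearts of a group differed most for Col3a1, Postn, Spon2 and Eln, with within-group SDs of 0.371, 0.362, 0.346 and 0.335 against 0.183 for the median gene. For the median member the SD was 0.200. Among the hearts labelled knockout, replicate 5 was the lowest for 28 of 49 members (57.1%) against 22.9% of all genes, and replicate 3 the highest for 21 (42.9%) against 20.6%. Replicate 7 of wild-type ZT0 was the lowest for 21 members (42.9%) against 15% of all genes.

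Pairs of members, mostly chains of 1 protein or partners in 1 fibre, were compared across the 19 hearts after the mean of each group was removed, with permutation tests within groups and p-values adjusted over 10 pairs. Col1a1 and Col1a2 moved together across hearts (r = 0.93, rho = 0.90, permutation adjusted p = 6.67e-05 for r and 5.00e-05 for rho). Col1a1 and Col3a1 had r = 0.93 and rho = 0.87 (permutation adjusted p = 5.00e-05 and 1.33e-04). Col4a1 and Col4a2, which share the start region shown above, had r = 0.93 and rho = 0.96 (permutation adjusted p = 5.00e-05 for both). Without the 2 hearts farthest from the median on the first gene, r was 0.88, 0.87 and 0.91. The smallest unadjusted p that the permutations can give is 1e-05.

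Weaker pairs followed. Col5a1 and Col5a2 had r = 0.60 and rho = 0.56 (permutation adjusted p = 0.00172 and 0.0137), with r = 0.50 without the 2 farthest hearts. Col6a1 and Col6a3 had r = 0.57 and rho = 0.52 (permutation adjusted p = 0.0230 and 0.0436; 0.44 without the 2). Eln and Spon2 had r = 0.59 and rho = 0.63 (permutation adjusted p = 0.00172 and 0.0121; 0.57 without the 2), and r was 0.71 within wild-type ZT0 and 0.84 within wild-type ZT12.

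The remaining pairs did not pass. Eln and its cross-linker Lox had r = 0.68 and rho = 0.38 (permutation adjusted p = 0.0842 and 0.208). Without knockout replicates 3 and 4, r fell to 0.40, so it rests in part on those hearts. Within the wild-type groups r was -0.21 and -0.04. Col6a1 and Col6a2 had r = 0.36 and rho = 0.42 (permutation adjusted p = 0.0877 and 0.104), and Col4a3 and Col4a4 had r = 0.41 and rho = 0.35 (permutation adjusted p = 0.107 and 0.188). Col4a1 and Col5a3, both lower at ZT12, had r = 0.07 and rho = 0.05 (permutation adjusted p = 0.735 and 0.834) once the group means were removed.

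**Figure D3:**
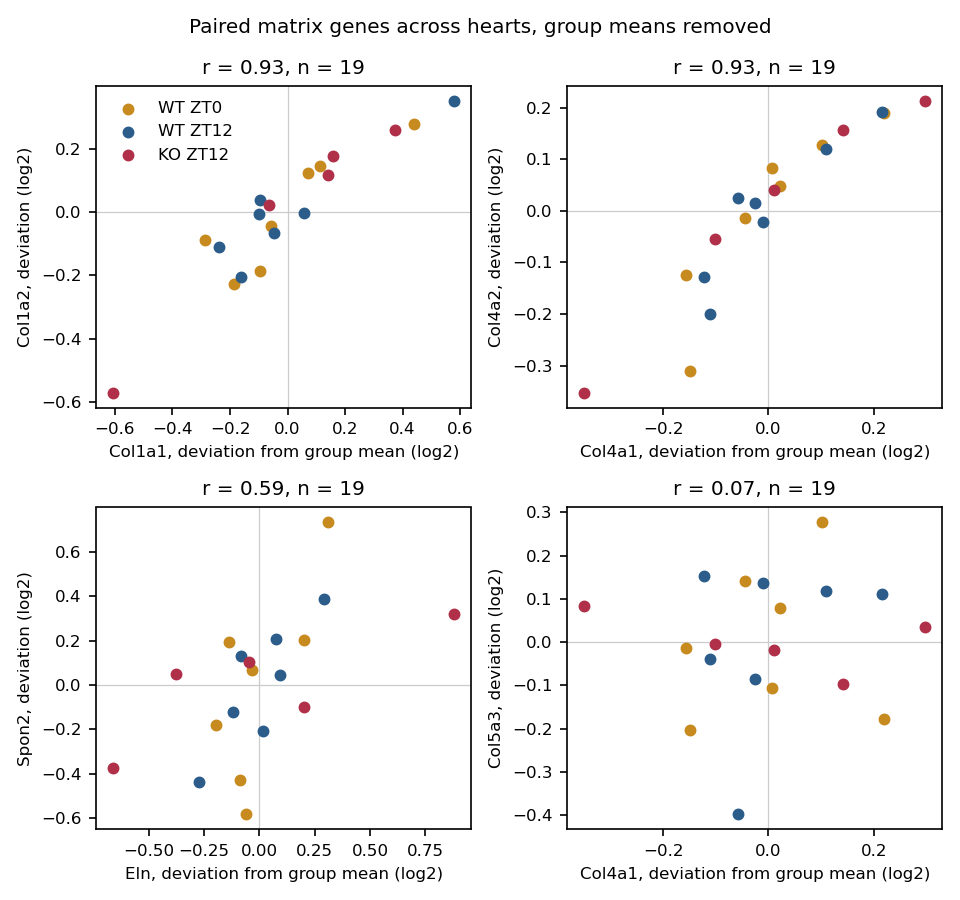
Deviations from the group mean (log2) of paired genes in 19 hearts, 1 point per heart, coloured by group, for Col1a1 and Col1a2, Col4a1 and Col4a2, Eln and Spon2, and Col4a1 and Col5a3. The first 2 panels lie along a line (r = 0.93 in both), the third is looser (r = 0.59), and the last shows no line (r = 0.07).

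Marker lists of other cells and tissue were read beside these values and did not all move alike. All 7 pericyte markers lay above 0 between the wild-type groups (median difference 0.070), and 6 lay below 0 between the genotypes. None was called. For knockout against wild-type ZT0 hearts, 6 of 8 macrophage markers (75%, against 12.6% of all genes) had an unadjusted p under 0.05, 5 lower and 1 higher. None passed. Of 7 adipocyte markers, 1 rose and 0 fell in each comparison with knockout hearts. In whole-heart RNA, fewer cells of a type and less RNA per cell cannot be told apart. The mean of 11 atrial muscle markers ran from 7.36 to 8.47 in wild-type ZT0 hearts and from 5.93 to 8.31 at ZT12, and it was 8.28, 5.80, 7.81, 6.13 and 5.88 in knockout replicates 1 to 5. Of these 11 markers, 10 lay below 0 between the wild-type groups and 8 in each comparison with knockout hearts, with 0 called lower. The only one called by limma was Gpr22, higher in knockout than in wild-type ZT0 hearts (log2 difference 0.45, adjusted p = 0.0460). That call was lost in 15 of 19 fits that left out 1 array. Among the markers not called, Bmp10 read 3.86 in wild-type ZT0 replicate 1 and 9.54 to 10.3 in the other ZT0 hearts. At ZT12 it read 3.42 to 3.70 in wild-type replicates 3 to 6 and 9.63 to 10.1 in the rest. It was 9.01, 3.20, 4.15, 2.66 and 3.47 in knockout replicates 1 to 5. By the mean, the 4 lowest arrays were wild-type ZT12 replicate 5 and knockout replicates 2, 4 and 5. Other hearts low in Bmp10 were kept when these 4 were left out. Without those 4 arrays the knockout group holds 2 hearts, and the genotype difference was 1.25 for Eln (adjusted p = 0.00302), 0.93 for Lox (adjusted p = 0.00156), 0.45 for Col5a3 (adjusted p = 0.354) and 0.22 for Postn, whose sign turned. With the atrial mean as a covariate the wild-type difference of Eln was -0.52 (adjusted p = 0.126), while Spon2, Col5a3 and Col4a1 stayed called at -1.31, -0.74 and -0.46.

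The mean of 10 smooth muscle markers ran from 6.55 to 6.89 at ZT0, from 6.39 to 6.57 at ZT12 and from 6.34 to 6.91 in the hearts labelled knockout. All 10 markers lay below 0 between the wild-type groups (median difference -0.119), and 0 passed the test. With the mean as a covariate, Spon2 (difference -1.27, adjusted p = 0.00220) and Col5a3 (difference -0.80, adjusted p = 3.25e-04) stayed called between the wild-type groups. Col4a1 (difference -0.37, adjusted p = 0.130) and Eln (difference -0.40, adjusted p = 0.442) did not. The ranges of the marker mean barely overlapped between the wild-type groups, so this fit cannot well tell it apart from time of day.

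Of 12 endothelial markers, 1 fell, 0 rose and 9 lay below 0 between the wild-type groups, and the list mean ran from 7.39 to 7.58 at ZT0, from 7.18 to 7.53 at ZT12 and from 7.22 to 7.48 in the hearts labelled knockout. The one that fell was Kdr, a receptor for vascular growth factor, which read 8.36, 8.75 and 9.0 at ZT0 and 8.06, 8.17 and 8.39 at ZT12 (log2 difference -0.52, SE 0.086; adjusted p = 0.00160), in the same comparison as the fall of Col4a1. Of 7 endocardial and valve markers, 1 fell and 0 rose between the wild-type groups, Prox1 (log2 difference -0.40, adjusted p = 0.0136). That list mean ran from 5.71 to 5.96, from 5.36 to 5.88 and from 5.22 to 5.84 in the 3 groups in the same order.

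Of 12 fibroblast markers that are not members, 0 passed between the wild-type groups, with 1 lower at an unadjusted p under 0.05. Between the genotypes at ZT12, 1 fell, Cd34, which endothelial cells also express (log2 difference -0.38, SE 0.086; adjusted p = 0.0425). Its call was kept in 6 of 19 fits that left out 1 array, those without wild-type ZT0 replicates 3, 4, 6 or 7, wild-type ZT12 replicate 5 or knockout replicate 3. The fibroblast list mean ran from 7.20 to 7.38 at ZT0, from 7.14 to 7.39 at ZT12 and from 6.82 to 7.51 in the hearts labelled knockout. Of 7 mesothelium markers, 1 fell between the genotypes, Lrrn4 (log2 difference -0.53, SE 0.12; adjusted p = 0.0359). Lrrn4 was dim, and its call was lost without wild-type ZT12 replicates 1, 2, 4, 6 or 7 or knockout replicates 2, 4 or 5, with adjusted p between 0.0653 and 0.11. The mesothelium list mean ran from 3.85 to 4.39 in wild-type ZT12 hearts and from 3.64 to 4.39 in the hearts labelled knockout. The part of these cells in the differences was not tested beyond these fits.

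**Figure D4:**
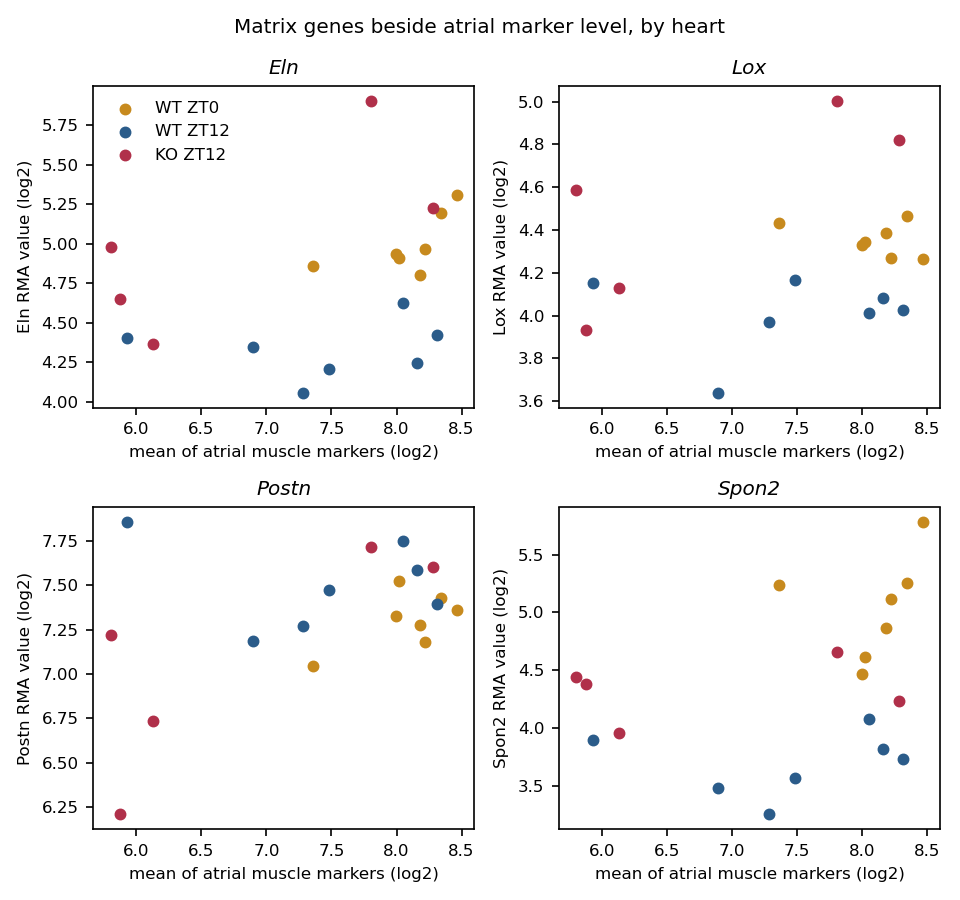
RMA values (log2, y axis) of Eln, Lox, Postn and Spon2 in each heart against the mean of 11 atrial muscle markers (log2, x axis), coloured by group. The knockout hearts split into 2 with atrial means of 7.81 and 8.28 and 3 between 5.80 and 6.13, and the former have the highest Lox values of all hearts.

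Genes that fold, modify, anchor or sense these proteins were read from 7 further lists. Of 23 genes for collagen modification and secretion, 1 fell and 0 rose between the wild-type groups, and 2 fell and 0 rose between knockout hearts and wild-type ZT0 hearts. At an unadjusted p under 0.05, 3 were higher and 3 lower in the former (26.1%, against 11.5% of all genes). In the latter, 1 was higher and 4 were lower (21.7%, against 12.6% of all genes). Serpinh1, which encodes the collagen chaperone HSP47, read 7.19, 7.41 and 7.59 at ZT0 and 6.78, 6.98 and 7.10 at ZT12, and 6.97, 7.09, 6.98, 6.89 and 6.82 in the hearts labelled knockout. Both ZT12 groups lay below every ZT0 heart, with log2 differences of -0.39 (SE 0.073; adjusted p = 0.00623) and -0.41 (SE 0.080; adjusted p = 0.00851). The first call was lost with the smooth muscle mean as a covariate (difference -0.34, adjusted p = 0.0946). The second was lost with the atrial mean as a covariate (difference -0.38, adjusted p = 0.0776) and without the 4 arrays lowest in atrial markers (difference -0.39, adjusted p = 0.207). P4ha1, a subunit of the enzyme that hydroxylates collagen prolines, fell by 0.47 between wild-type ZT0 and knockout hearts (adjusted p = 0.0394), and of 19 fits that left out 1 array the call was kept only without wild-type ZT0 replicate 4, knockout replicate 3 or any single wild-type ZT12 heart.

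Of 20 matricellular proteins and proteoglycans, 1 rose and 0 fell at ZT12 in wild-type hearts. Thbs2, which encodes thrombospondin-2, a regulator of collagen fibril assembly in mice, read 5.94, 6.12 and 6.59 at ZT0, 6.5, 6.69 and 6.77 at ZT12, and 6.98, 7.07, 6.98, 7.08 and 6.85 in the hearts labelled knockout. Every knockout heart lay above every wild-type heart, while the wild-type groups overlapped through 1 high ZT0 heart. Thbs2 rose by 0.48 between the wild-type groups (SE 0.085; adjusted p = 0.00382), and knockout hearts were higher than ZT0 hearts by 0.83 (SE 0.093; adjusted p = 1.62e-05). The difference between the genotypes at ZT12 was 0.35 (SE 0.093; adjusted p = 0.0963).

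Of 18 basement membrane partners, 1 fell and 0 rose between the genotypes at ZT12. At an unadjusted p under 0.05, 2 were lower and 4 higher (33.3%, against 10.6% of all genes). Between knockout and wild-type ZT0 hearts, 4 were lower and 2 higher (33.3%, against 12.6% of all genes). Nid2, which encodes nidogen-2, a linker of laminin and type IV collagen, read 5.18, 5.33 and 5.50 in wild-type ZT12 hearts and 4.97, 4.92, 4.98, 4.83 and 4.65 in the hearts labelled knockout, with no overlap (log2 difference -0.47, SE 0.089; adjusted p = 0.0122). Without the 4 arrays lowest in atrial markers, which leaves 2 hearts labelled knockout, the difference was -0.38 (adjusted p = 0.356). Of 16 elastic fibre proteins, 6 (37.5%, against 12.6% of all genes) had an unadjusted p under 0.05 between knockout and wild-type ZT0 hearts. In that comparison 3 were lower and 3 higher, and 0 passed. Between the genotypes at ZT12, 1 of the 16 rose and 0 fell. It was Fbn2, the fibrillin-2 gene, which was dim at 2.94 to 3.70 on all arrays (log2 difference 0.43, adjusted p = 0.0179), and its call was lost without knockout replicate 3 (adjusted p = 0.0543) or 5 (adjusted p = 0.0585).

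Of 18 genes of TGF-beta signalling, a pathway that induces collagen in fibroblasts, 2 rose and 0 fell between wild-type ZT0 and knockout hearts and 0 passed in the other comparisons. They were Tgfbr3 (log2 difference 0.37, adjusted p = 0.0250) and Tsc22d1 (log2 difference 0.29, adjusted p = 0.0304). The call of Tgfbr3 was lost without knockout replicates 2, 4 or 5, and that of Tsc22d1 without wild-type ZT0 replicates 1, 2, 4, 5 or 6 or knockout replicates 1, 3 or 4. None of 20 matrix receptors and none of 5 cross-linking enzymes other than Lox passed in any comparison. By limma, 4 cross-linking enzymes (80%) had an unadjusted p under 0.05 between knockout and wild-type ZT0 hearts, all lower, against 12.6% of all genes. Their lowest adjusted p was 0.0961. Between the genotypes at ZT12, 6 receptors (30%) had one, 3 higher and 3 lower, against 10.6% of all genes (lowest adjusted p = 0.115). Among the receptors, the smallest p between the wild-type groups belonged to Itga11, an integrin chain that binds collagen (difference -0.36, adjusted p = 0.286), and to Itgb3, an integrin chain that binds fibronectin (difference -0.25, adjusted p = 0.362). Among the cross-linking enzymes it belonged to Loxl1 and Loxl3, relatives of Lox (differences -0.47 and -0.21, adjusted p = 0.137 and 0.334).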

How the data were processed

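Transcripts were measured in 19 mouse hearts on Affymetrix arrays. The deposited values are on a log2 scale, 1 per probe set, and the authors computed them by RMA, per the submitters' processing notes. The scale was taken from the values (0.208 to 12.88). Version and annotation: not given in the sources used here. RMA brings all arrays to 1 distribution, so a shift shared by most genes would not show. Of 41345 probe sets, 23521 list 1 gene in the platform annotation, which can be old, 1814 list several and 16010 none. Each of 22180 genes was represented by its single-gene probe set with the highest mean. For Col1a2, Col5a1 and Col6a1, which had several, the other probe set was dim, and for Col5a1 it differed between the genotypes by 0.17, against -0.11 for the one used. All columns of values were used.

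Group means were tested by limma (version 3.58.1, R 4.3.3; lmFit with 1 mean per group over all arrays, eBayes without trend), two-sided, with Benjamini-Hochberg adjustment over all genes. The labels call the replicates biological. The number of arrays limits the precision: a member's log2 difference had a median SE of 0.103 for wild-type ZT12 against ZT0 and 0.113 where the knockout entered. Correlations used 100000 permutations within groups. The fit was tested on simulated data.

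The members and gene lists were chosen with earlier results of these data known. Named genes are those called, the non-collagen members, the chains of types I, III, IV, V and VI, the 3 largest differences each way per comparison, and from each further list the called genes or, with none called, those with the smallest p. Also named were Col11a1, Col11a2, Col14a1 and Col20a1 and the atrial marker Bmp10. The pair of Eln and Fbn1 was not run, since Fbn1 was not analysed here. Alternatives covered the arrays in the fit, dim probe sets, probe set choice, scaling, moderation, replicate numbers, marker covariates and single arrays left out.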

Additional observations from a re-analysis of the deposited data

Results flagged for a closer look

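Members that met the rule for named genes, so not Col11a1, Col11a2, Col14a1 or Col20a1, were looked at group by group, 81 sets of hearts. In 9 of them the highest or lowest heart stood farther from its neighbour than Dixon's 95% limit allows, and chance gives about 1 in 20 for a single set. The sets share the same hearts and some of the genes moved together across them, so the 9 are not independent. In wild-type ZT12 replicate 1, Col1a1 (6.85) and Col3a1 (7.04) stood above the other 6 hearts. In knockout replicate 5, Col1a2 (6.01) and Col6a3 (4.88) stood below the other 4. Lox (3.64) stood low in wild-type ZT12 replicate 3 and Col5a1 (5.24) in replicate 6, and Col4a6 (3.60) stood high in replicate 7. In wild-type ZT0 replicate 7, Col28a1 (2.54) and Col4a6 (2.81) stood low, and both are dim.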

How the results depend on the processing

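The 10 other settings and the 19 fits that each left out 1 array were applied to 67 log2 differences and to the 3 counts of members called. Between the wild-type groups the count was 4, and 3 to 5 with 1 array left out. It was 2 (Spon2 and Col5a3) with the smooth muscle mean as a covariate, and 3 to 5 in the remaining settings. Col15a1 gained a limma call without dim probe sets, with quantiles normalized once more and with trend and robust fitting (adjusted p = 0.0205, 0.0459 and 0.0281). It also gained one in 4 of 19 fits that left out 1 array. Lox gained a call with only the arrays compared and without the 4 arrays lowest in atrial markers (adjusted p = 0.0401 and 0.0311). Between the genotypes at ZT12 the count was 1, and 0 to 1 with 1 array left out. It was 0 with only the arrays compared or with quantiles normalized once more, and 2 (Col5a3 and Eln) without dim probe sets or by limma with trend and robust fitting. It was 2 (Eln and Lox) with the atrial mean as a covariate or without the 4 arrays lowest in atrial markers, and 3 (Col5a3, Fn1 and Postn) with the smooth muscle mean as a covariate. For knockout against wild-type ZT0 hearts it was 0, with 0 to 1 with 1 array left out, 2 (Spon2 and Col15a1) without dim probe sets, and 1 with trend and robust fitting (Spon2) or without the 4 arrays (Lox). The wild-type call of Eln was also lost with arrays centred on their medians (adjusted p = 0.0533). The genotype call of Col5a3 had an adjusted p of 0.0862 with only the arrays compared, 0.0556 with quantiles normalized once more and 0.0924 with the atrial covariate.

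Over all genes, samples with the same replicate number did not deviate together, with correlations from -0.072 to 0.074. A link that touches few genes cannot be seen this way, so whether the numbers pair samples was not settled. With the replicate block the count was 4 between the wild-type groups, 0 between the genotypes (Col5a3 adjusted p = 0.0618) and 1 in the last comparison (Spon2, difference -0.76, adjusted p = 0.0181). Among the calls lost under it, for the hearts labelled knockout against wild-type ZT0, were Serpinh1 (adjusted p = 0.0645), P4ha1 (0.130), Tgfbr3 (0.0554) and Tsc22d1 (0.0868). Between the genotypes, those of Nid2 (0.0616), Fbn2 (0.0715), Cd34 (0.0616) and Lrrn4 (0.173) were lost.

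Signs turned for small differences. Col1a2 between the wild-type groups was 0.074 with the smooth muscle mean as a covariate. Col15a1 between the genotypes was -0.0066 with quantiles normalized once more, -0.043 with the smooth muscle covariate, and -0.046 to 0.045 with 1 array left out. Serpinh1 between the genotypes ran from -0.055 to 0.011 with 1 array left out. Postn was 0.22 without the 4 arrays. For knockout against wild-type ZT0 hearts, Col4a2 was 0.076 without the 4 arrays and -0.10 to 0.038 with 1 array left out, and Eln was -0.19 to 0.19. Without the 2 farthest hearts, r was 0.19 for Col4a3 and Col4a4 and 0.40 for Eln and Lox. The cause of these shifts was not tested. Members near the array floor, 19 of 49, are limited by signal over background, as is Spon2 in wild-type ZT12 hearts.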
